A study of Homo sapiens with 18 samples.

Results

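The splicing of long noncoding RNA (lncRNA) genes was followed in 8246 introns of 2020 genes, out of 233650 introns in the deposited splicing table. An intron was taken when its ends on hg38 matched an annotated GENCODE intron of a lncRNA gene and of no protein-coding gene, when the gene symbol did not start with SNHG, and when its mean PSI over all 18 libraries lay between 0.01 and 0.99. PSI (percentage spliced in) is the share of an intron among the spanning reads of its leafcutter cluster, the set of introns that share splice sites. It is given here in percent, and it measures neither the amount of a transcript nor intron retention. Of 9377 matching introns, 1094 had a lower and 37 a higher mean PSI and were set aside. At the lower limit, an intron of MIR31HG with a mean of 1.01% was the last inside and one of TTC28-AS1 at 1.0% the first outside. At the upper limit, an intron of MIR4458HG at 98.9% was inside and one shared by BMS1P4 and ENSG00000272140 at 99% was outside.

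The cells were SHEP.tet21n, 1 neuroblastoma line in which a MYCN transgene is switched off by doxycycline (Dox). MYCN- cells received 2 µg/mL Dox and MYCN+ cells received vehicle (DMSO). Each was transfected with control siRNA (SNRPD3+), with SNRPD3 siRNA 1 or with SNRPD3 siRNA 2 (SNRPD3-), which gave 6 groups of 3 replicate libraries. MYCN-/SNRPD3+ is called wildtype, and every group carried the transgene and an siRNA. MYCN status therefore goes with Dox in every library. The differences called MYCN effects below cannot be told apart from effects of Dox itself. Read numbers do not accompany the PSI values, so neither the depth of a library nor the counting error of a value can be given. Neither perturbation was checked here, since PSI gives no level of MYCN or SNRPD3, and for the same reason the cell type could not be checked by its markers. The study describes its replicates as independent biological replicates, the labels do not tell which cultures they came from, and the p-values measure the spread between these libraries.

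Most lncRNAs are made by RNA polymerase II, capped, polyadenylated and spliced by the same spliceosome as messenger RNA, with SNRPD3 among the Sm proteins that sit on its core small nuclear RNAs. They carry no long reading frame, so a changed splice site alters which sequence the RNA holds and not a protein. Some are read from the strand opposite a coding gene (antisense, symbols in -AS), some start beside a coding promoter and run the other way (divergent, -DT), some lie between genes (LINC), and some are kept mainly as hosts from which microRNAs or small nucleolar RNAs are cut.

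The splice sites below belong to introns on which the results turn. They were read from hg38 on the strand of the gene, 5′ to 3′, with 5 exon and 10 intron bases at a donor and 20 intron and 3 exon bases at an acceptor, and the capitals mark the intron's first 2 and last 2 bases. In ENSG00000223969 (chr7, minus strand), introns of 3826 bases (chr7:90591902-90595727) and 5295 bases (chr7:90591902-90597196) end at 1 acceptor and start at different donors.
ENSG00000223969 donor of the 3826-base intron: gtgcgGTaaggcctt
ENSG00000223969 donor of the 5295-base intron: ccaagGTaactgtcc
ENSG00000223969 shared acceptor: tacatttgcttattttatAGgta
In SERTAD4-AS1 (chr1, minus strand), introns of 926 bases (chr1:210231772-210232697) and 1863 bases (chr1:210231772-210233634) also share their acceptor.
SERTAD4-AS1 donor of the 926-base intron: ccaggGTgagagagg
SERTAD4-AS1 donor of the 1863-base intron: aggagGTgagctgag
SERTAD4-AS1 shared acceptor: ataacacttctttaaaacAGtga
In LINC02154 (chrX, minus strand), introns of 20093 bases (chrX:13267336-13287428) and 35984 bases (chrX:13267336-13303319) share their acceptor too, but the layout differs. An annotated intron of 15755 bases (chrX:13287565-13303319) starts at the donor of the 35984-base intron and ends before the donor of the 20093-base intron. The 35984-base intron thus passes over the stretch between the shorter introns, as the long intron of LINC01524 below passes over an exon.
LINC02154 donor of the 20093-base intron: cacagGTaacgtgtg
LINC02154 donor of the 35984-base intron: gaactGTgagtccat
LINC02154 shared acceptor: acctcttttttccctttcAGtat
In LINC01524 (chr20, plus strand), an annotated exon of 310 bases (chr20:52538752-52539061) lies between an intron of 7803 bases and one of 10969 bases (chr20:52539062-52550030), and an intron of 19082 bases passes over it.
LINC01524 donor shared by the upstream and the long intron: ctgagGTgagctaag
LINC01524 acceptor of the exon: aactttttttttcgttaaAGgag
LINC01524 donor of the exon: aaaagGTacatgttt
LINC01524 acceptor shared by the downstream and the long intron: ataaatcaaactttttgcAGgca

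Compared with 94171 annotated introns of protein-coding genes in the same table, the lncRNA introns were longer and less often the main choice of their cluster. Their median length was 3394 bases against 2370, 6.17% of them exceeded 50 kb against 3.08%, and their median mean PSI was 16.3% against 34.2%. They stood in larger clusters, with a median of 7 introns against 5. The splice sites were alike by these measures: GT and AG ends stood in 99% against 98.9%, a G at the fifth intron base stood in 76.8% against 77.0%, and the mean number of matches to the 9-base donor consensus CAGGTAAGT was 6.35 in both. In 39.8% of the lncRNA introns the intron belonged to the gene's canonical transcript, and in 46.5% a single annotated transcript used it. LINC00174 held the most members with 35, followed by PVT1 with 34, PCBP1-AS1 with 32 and MIR99AHG with 31, whereas 616 genes held 1. A protein-coding gene lay on the opposite strand of 22.8%, and 480 members also matched an intron of a pseudogene annotation, whose reads can be split with the parent gene.

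The lncRNA values were also noisier. The median SD between replicates was 5.2 percentage points against 2.35 for coding introns, and among introns with a mean PSI from 20% to 80% it was 12.9 against 3.28. Replicates of a group correlated over the lncRNA introns at r = 0.696 to 0.728, and over coding introns at 0.905 to 0.933. These are correlations across introns within pairs of libraries, and introns of a cluster are not independent. Exactly the same PSI stood in more than 1 library for 2450 of the 8246 lncRNA introns (29.7%), against 10.1% of coding introns. In 2449 of these the whole cluster repeated in the same libraries. A repeated value may have been filled in where a library had no reads in the cluster, which could not be tested without read numbers, so such values and their spread may not be measurements. Without them the replicate correlation rose to between 0.764 and 0.832. Of the 1332 lncRNA introns whose PSI spanned more than 90 points over the libraries, 1184 held repeated values. The plot of mean PSI and replicate spread shows both differences along the PSI scale.

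**Figure D1:**
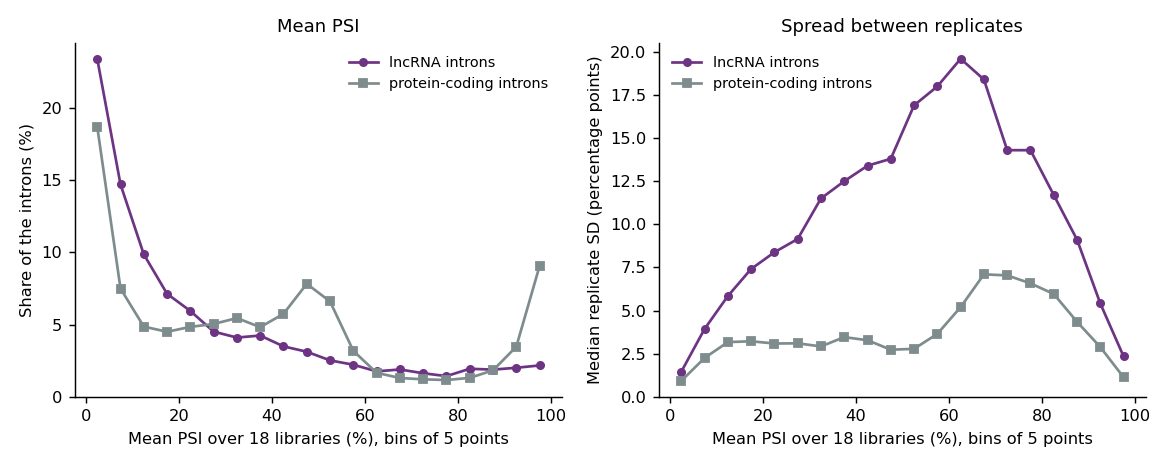
Left, share of 8246 lncRNA introns and 94171 protein-coding introns (y, %) by mean PSI over 18 libraries (x, %, bins of 5 points). Right, median SD of PSI between the 3 replicates of a group (y, percentage points) by the same bins: the lncRNA line lies above the coding line in every bin, at 13.8 against 2.73 for a mean PSI from 45% to 50%.

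Across libraries, the share of lncRNA introns at a repeated value followed MYCN status. It ran from 8.44% to 11.3% in the 9 MYCN- libraries and from 11.5% to 14.4% in the 9 MYCN+ libraries, with no overlap. For coding introns it ran from 1.98% to 3.02% and from 2.47% to 3.83%, which overlap. The part of this shift in the MYCN results below was not tested. Exon skipping in lncRNA genes was summarised over 1794 sets of an upstream, a downstream and an exon-skipping intron in 575 genes, with a median exon of 122 bases, as the skipping intron's PSI over the sum of that PSI and the mean PSI of the other two. It is given as a description, with no test. The mean share was 42.8% ± 0.55 (SD, n = 3) in wildtype and 43.1% ± 1.1 in MYCN+/SNRPD3+. With SNRPD3 depleted it was 44.3% ± 0.36 (siRNA 1) and 44.3% ± 0.51 (siRNA 2) in MYCN- cells, and 46.1% ± 1.1 and 45.1% ± 1.2 in MYCN+ cells. Across MYCN status the highest SNRPD3+ library (MYCN+, at 44.2%) overlapped the lowest SNRPD3- library (MYCN-, siRNA 2, at 43.9%). Within MYCN- cells all SNRPD3- libraries lay above all wildtype libraries, the highest of which was at 43.3%. Within MYCN+ cells the siRNA 1 libraries, at 45.3% or above, lay above the SNRPD3+ libraries, and the siRNA 2 libraries overlapped them. In coding genes the same share was 37.9% ± 0.23 in wildtype, 38.4% ± 0.4 in MYCN+/SNRPD3+, 39.0% ± 0.26 and 38.8% ± 0.21 in MYCN-/SNRPD3-, and 40.4% ± 1.4 and 39.8% ± 0.87 in MYCN+/SNRPD3-. There, within each MYCN status, all SNRPD3- libraries lay above all SNRPD3+ libraries. Introns outside the annotation made up 23.8% to 25.1% of the PSI in clusters with a lncRNA intron and no coding intron, and 3.81% to 4.55% in clusters with a coding intron, with no group of libraries apart for the lncRNA clusters.

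**Figure D2:**
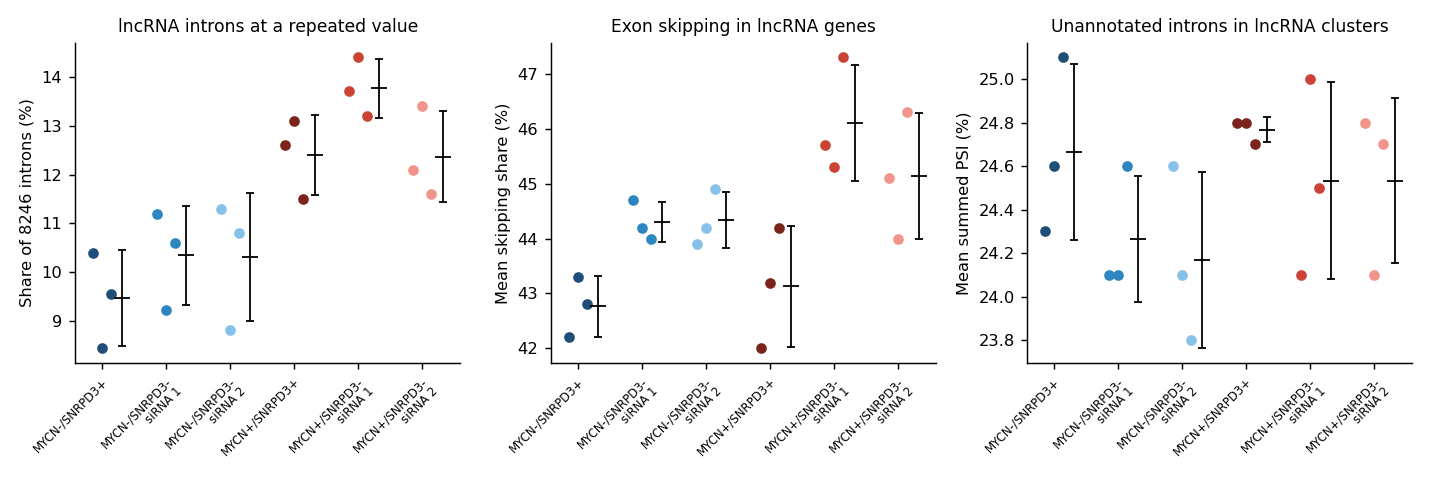
Each point is 1 library (3 for each of 6 groups, blue MYCN- and red MYCN+), with the mean and SD of the group in black, and the y axes do not start at 0. From left to right the panels give the share of the 8246 lncRNA introns at a repeated PSI, which was higher in all 9 MYCN+ libraries, the mean exon skipping share in lncRNA genes, highest in MYCN+/SNRPD3- siRNA 1 at 45.3% to 47.3%, and the share of PSI held by unannotated introns.

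Each intron was tested on the log2 odds of its PSI with limma over all 6 groups, and an intron is called when its p, adjusted by the Benjamini-Hochberg method over all 152722 introns tested, was under 0.05. The comparison of the 9 MYCN+ with the 9 MYCN- libraries, averaged over the 3 siRNAs, called 57 lncRNA introns in 48 genes, 0.691% of the members. Over all introns tested 1.23% were called, so the lncRNA share was below the background. Of the 57, 24 had a higher PSI with MYCN expressed (0.681% of all introns tested did) and 33 a lower one (0.547% did). The PSI of the 9 and 9 libraries did not overlap in 11 members (0.353% of all introns), and 8 were both called and without overlap (0.317% of all introns). The median log2 odds difference was -0.04 over the members and -0.003 over all introns tested. Every other comparison called fewer members. MYCN under control siRNA called 5 (0.0606%, background 0.0543%). MYCN+/SNRPD3- against wildtype called 11 with siRNA 1 (0.133%, background 0.278%) and 5 with siRNA 2 (0.0606%, background 0.110%). SNRPD3 depletion in MYCN- cells called 0 with siRNA 1 (background 0.0105%) and 0 with siRNA 2 (background 0.0151%) by limma, with 431 and 453 members at an unadjusted p under 0.05 (5.23% and 5.49%, against 4.54% and 4.69% of all introns). In MYCN+ cells it called 1 with each siRNA (0.0121%, backgrounds 0.0144% and 0.0164%). The knockdown averaged over MYCN status called 1 (background 0.0242%), and so did the interaction, the knockdown effect in MYCN+ cells minus that in MYCN- cells (background 0.0177%). When only the groups compared were fitted, the member share lay above the background in each of the 7 comparisons between single groups, for example 0.643% against 0.504% for MYCN+/SNRPD3- siRNA 1 against wildtype, with repeated values in 27 of the 53 members called. In all, 62 members were called at least once, and 9 of these hold repeated values. Of the 57, 2 belong to 1 gene that is counted but not described. Several comparisons share the wildtype or the MYCN+/SNRPD3+ libraries and are not independent of each other.

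The clearest difference by MYCN status was in the use of the 2 donors of ENSG00000223969, an lncRNA gene without a symbol, whose splice sites are printed above. The PSI of its 3826-base intron was 63.3%, 61.3% and 49.8% in wildtype, 45.2%, 57.4% and 49.8% in MYCN-/SNRPD3- siRNA 1, and 57.6%, 42.7% and 42.8% with siRNA 2. It was 17.1%, 27.2% and 30.2% in MYCN+/SNRPD3+, 28.6%, 25.7% and 21.6% in MYCN+/SNRPD3- siRNA 1, and 28.6%, 31.9% and 24.2% with siRNA 2. All 9 MYCN- libraries lay above all 9 MYCN+ libraries, and within each MYCN status the SNRPD3- libraries overlapped the SNRPD3+ libraries. The fall was 26.1 points, or -1.61 ± 0.19 log2 odds (SE, adjusted p = 0.00124). Use of the 5295-base intron from the farther donor rose in return, from 39.9% ± 8.8 (SD, n = 9) to 70.1% ± 5.2, by 1.82 ± 0.24 log2 odds (adjusted p = 0.00216), again with no overlap (medians 42.0% and 69.5%). The PSI values of a cluster sum to 1, so opposite changes of its introns, here and below, are not independent results. Each of these introns repeats 1 value, so 17 of its 18 values differ. The 5295-base intron is intron 1 of 2 in the canonical transcript, and a change of transcript start was not tested. The 3826-base intron also passed in MYCN+/SNRPD3+ against wildtype (-2.06 ± 0.33, adjusted p = 0.0483), a call kept in 5 of the 24 alternatives tried.

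SERTAD4-AS1, antisense to the gene of a SERTA domain protein, showed the same kind of change between 2 donors of 1 acceptor, and a change of transcript start was not tested there either. Its 926-base intron had a PSI of 20.4%, 20.6% and 23.3% in wildtype, 23.1%, 22.9% and 38.3% in MYCN-/SNRPD3- siRNA 1, and 25.2%, 19.5% and 30.6% with siRNA 2. With MYCN expressed it was 57.8%, 49.4% and 40.8%, then 35.6%, 52.8% and 40.4% with siRNA 1 and 37.4%, 49.4% and 47.5% with siRNA 2. A single MYCN- library, at 38.3%, reached into the MYCN+ range. The intron rose by 20.8 points (1.33 ± 0.21 log2 odds, adjusted p = 0.00674), and the 1863-base intron of the same cluster fell in return from 63.5% ± 7.2 to 43.8% ± 7.1 (SD, n = 9; adjusted p = 0.019). In LINC02154 the shift was smaller: the 35984-base intron fell from 64.8% ± 3.3 to 55.5% ± 3.0 (-0.56 ± 0.095, adjusted p = 0.0121), and the 20093-base intron rose from 13.6% ± 1.4 to 17.1% ± 2.1 (adjusted p = 0.0366, a call kept in 10 of 24 alternatives). For LINC02154 the third annotated intron of the cluster, 15755 bases from the same donor as the 35984-base intron, was not called (adjusted p = 0.0748).

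The plot of 9 MYCN-called introns gives every library. HOXB-AS1 is read from the strand opposite the HOXB homeobox genes, which set position along the body axis. Its 1425-base intron (chr17:48548464-48549888, plus strand, intron 4 of 6 in the canonical transcript) ran from 77.2% to 88.3% with a median of 83.7% in MYCN- libraries and from 62.8% to 77.4% with a median of 68.8% in MYCN+ libraries. The ranges met at their edges, and the fall was 12.9 points (-1.03 ± 0.16, adjusted p = 0.00621). ENSG00000290846, which overlaps a pseudogene, ran from 14.8% to 19.9% (median 18.3%) against 8.49% to 12.6% (median 10.7%) in its 37169-base intron, with no overlap (-0.8 ± 0.11, adjusted p = 0.00384). The same held for small levels of CCDC144NL-AS1 (medians 3.33% and 1.02%, adjusted p = 0.00833) and of the 51004-base intron of LINC02057 (medians 2.69% and 0.773%, adjusted p = 0.00495), the latter in a cluster with the coding gene SMIM15.

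**Figure D3:**
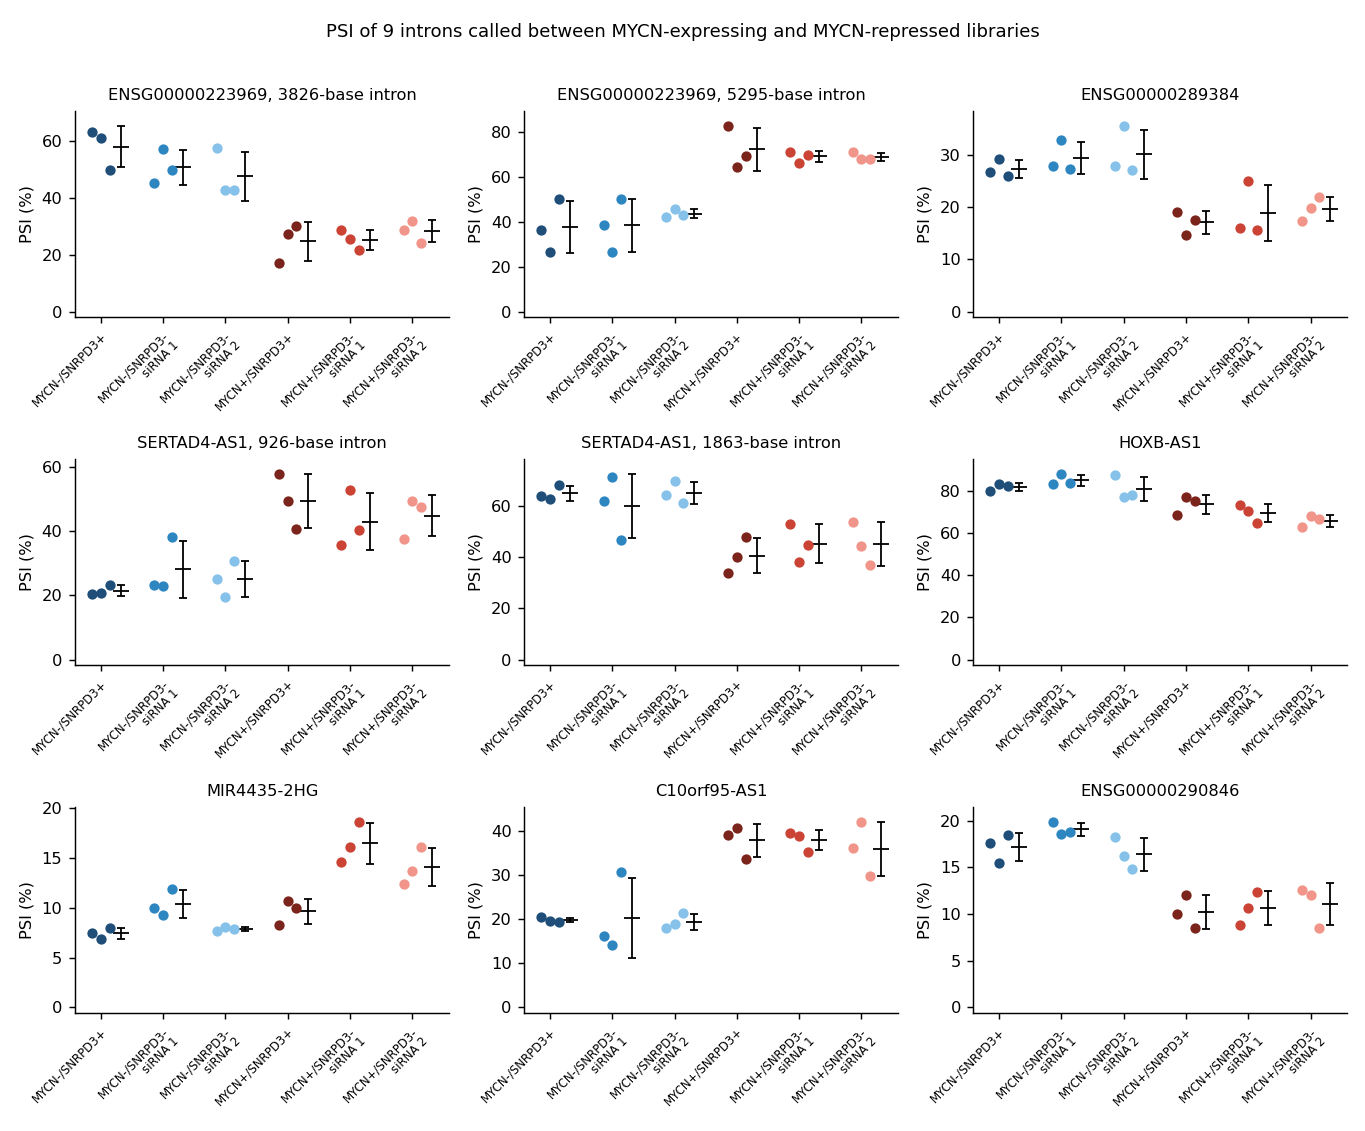
PSI (y, %) of 9 lncRNA introns called between MYCN+ and MYCN- libraries. Each point is 1 library (3 for each of 6 groups on x, blue MYCN- and red MYCN+) and black marks give the mean and SD: the 3826-base intron of ENSG00000223969 was higher in all MYCN- libraries and the 5295-base intron in all MYCN+ libraries.

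C10orf95-AS1, an antisense lncRNA, had the first intron of its canonical transcript (5006 bases, chr10:102450331-102455336, plus strand) at 14.1% to 30.8% (median 19.4%) without MYCN and at 29.8% to 42.0% (median 38.9%) with it. The rise was 17.4 points (1.24 ± 0.17, adjusted p = 0.00332), with 1 MYCN- library inside the MYCN+ range. Its cluster also holds introns of the coding gene MFSD13A, so this PSI is a share over both genes. Taken only among the introns that end at or before its own acceptor, its share was 34.6% to 59.3% in MYCN- and 51.2% to 67.7% in MYCN+ libraries, higher on average in each MYCN+ group but with overlap. Of the 57 called members, 10 (17.5%) lay in a cluster with a coding intron, against 5.26% of all members. These include ENSG00000254682, whose 2804-base intron went from 37.0% ± 3.5 to 50.3% ± 7.5 (adjusted p = 0.00584) in a cluster with NADSYN1, and ENSG00000289384, whose 36475-base intron went from 28.9% ± 3.2 to 18.5% ± 3.3 (adjusted p = 0.00946) in a cluster with KITLG. For them a changed choice within the lncRNA and a changed amount of lncRNA against coding RNA cannot be told apart.

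Among hosts of microRNAs, 3 of 183 introns were called for MYCN averaged, 1.64% against 1.23% over all introns, a difference that was not tested. The 135399-base intron of MIR4435-2HG (chr2:111208662-111344060, minus strand) had a PSI of 7.41%, 6.88% and 7.95% in wildtype, 8.25%, 10.7% and 10.0% in MYCN+/SNRPD3+, 14.6%, 16.1% and 18.6% in MYCN+/SNRPD3- siRNA 1, and 12.4%, 13.7% and 16.1% with siRNA 2. Without MYCN, knockdown libraries gave 9.92%, 9.25% and 11.9% with siRNA 1 and 7.68%, 8.08% and 7.84% with siRNA 2. The MYCN+/SNRPD3- libraries began at 12.4% and the others ended at 11.9%, an order whose share over all introns was not counted. Neither the knockdown averaged over MYCN status (0.49 ± 0.097, limma, adjusted p = 0.179) nor the interaction (0.42 ± 0.19, limma, unadjusted p = 0.0517) was called for this intron. The intron was called for MYCN averaged (0.65 ± 0.092, adjusted p = 0.00403) and for MYCN+/SNRPD3- against wildtype with siRNA 1 (1.19 ± 0.16, adjusted p = 0.0119) and siRNA 2 (0.94 ± 0.16, adjusted p = 0.0487), the last a call kept in 7 of 25 alternatives. CYTOR is a near copy of this gene on the same chromosome, and reads can be split between them. MIR100HG, which carries a microRNA cluster in its introns, had 2 introns that moved in opposite directions in a cluster of 48. The 4468-base intron fell from 9.17% ± 2.7 to 3.43% ± 2.2 (-1.37 ± 0.26, adjusted p = 0.0218) and the 1296-base intron rose from 3.47% ± 1.1 to 8.2% ± 2.7 (1.09 ± 0.17, adjusted p = 0.00637).

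Of the 364 introns of well-studied lncRNAs (33 of 40 symbols had a member), 2 rose and 2 fell with MYCN, 1.1% against 1.23% over all introns, a share near the background. The 1272-base intron of LINC-PINT, a p53-induced transcript, went from 6.96% ± 3.7 to 17.8% ± 5.3 (SD, n = 9; adjusted p = 0.0358, kept in 10 of 24 alternatives), and the MIR4435-2HG intron described above rose. A 109-base intron of JPX, from the X inactivation centre, went from 9.76% ± 0.81 to 7.12% ± 1.0 (-0.45 ± 0.084, adjusted p = 0.0192). A 64514-base intron of CYTOR went from 2.25% ± 0.71 to 0.994% ± 0.4 (adjusted p = 0.0465, kept in 8 of 23 alternatives). For each well-studied gene the intron with a mean PSI nearest the middle of the scale was followed, and their spreads differed widely. In GAS5, a small nucleolar RNA host, the 179-base intron ran from 50.3% to 51.9% over all 18 libraries (adjusted p = 0.991 for MYCN averaged). ZFAS1, another such host, ran from 38.4% to 42.1% in its 1276-base intron, TP53TG1 from 44.6% to 53.0% in its 3358-base intron, and CRNDE from 50.7% to 56.6% in its 1088-base intron. At the other end, the 82-base intron of NEAT1, scaffold of nuclear paraspeckles, ran from 2.29% to 99.5% with 11 different values, HOTAIR, from the HOXC cluster, from 0.742% to 99.1% with 16, and PVT1 from 1.29% to 98.9% with 7. Since these hold repeated values, their ranges may not be measured spreads.

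By class of gene, antisense lncRNAs with symbols ending in -AS and a number had 2061 introns, of which 6 rose and 8 fell with MYCN (0.679%). Divergent transcripts had 799, of which 3 rose and 2 fell (0.626%), LINC genes 1322, of which 4 rose and 8 fell (0.908%), and genes without a symbol 2404, of which 4 rose and 8 fell (0.499%). Small nucleolar RNA hosts outside SNHG had 83 introns and intronic or overlapping transcripts 24, with 0 called by limma in either and with 8 and 2 at an unadjusted p under 0.05. The shares of these 6 classes were under the 1.23% over all introns, and the median log2 odds differences over all 8 lists ran from -0.11 in the intronic or overlapping transcripts to -0.0053 in the well-studied genes. Under the symbol LINC01605 the 17425-base intron went from 37.2% ± 5.7 to 21.5% ± 5.3 (-1.11 ± 0.19, adjusted p = 0.0112) and the 102-base intron of the same cluster from 39.6% ± 5.5 to 55.7% ± 5.5 (0.93 ± 0.16, adjusted p = 0.0145). The annotation places them in different genes of that symbol, ENSG00000253161 and ENSG00000253414. A changed splice choice and a changed amount of 1 gene against the other cannot be told apart here. Among divergent transcripts, the 773-base intron of RPL37A-DT rose from 45.2% ± 8.6 to 64.5% ± 8.6 (adjusted p = 0.0308, kept in 12 of 24 alternatives), the 221-base intron of CDC37L1-DT from 15.6% ± 6.1 to 29.1% ± 8.2 (adjusted p = 0.0207), and the 525-base intron of EPCAM-DT fell from 51.7% ± 2.7 to 44.7% ± 4.1 (adjusted p = 0.0436, kept in 5 of 24). SLC12A2-DT rose in its 15702-base intron from 0.583% to 3.09% (median 1.79%) to 3.45% to 5.25% (median 3.85%), with no overlap (adjusted p = 0.0235).

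Many calls were introns close to the lower edge of PSI in 1 MYCN status. In 18 of the 57 the median PSI was under 1% in 1 status, 14 of them lower with MYCN expressed, while in 17 it was at least 10% in both. The PSI difference was above 20 points in 6, above 10 points in 18 and under 5 points in 21. The smallest p belonged to ENSG00000289189, whose 29840-base intron had a PSI of 21.2%, 28.9% and 13.7% in wildtype, 7.85%, 7.64% and 0.205% in MYCN-/SNRPD3- siRNA 1, and 18.2%, 18.1% and 12.6% with siRNA 2. In all 9 MYCN+ libraries it lay between 0.324% and 0.821%. MYCN+/SNRPD3+ replicates 1 and 2 both held 0.664%, so the intron has 17 different values. A single MYCN- library lay lower still, at 0.205%, and the difference was -3.13 ± 0.35 log2 odds (adjusted p = 0.000893). Antisense to the neurotrophin gene BDNF, BDNF-AS went from 24.3% to 57.2% (median 30.7%) to 0.357% to 29.7% (median 0.66%) in its 16348-base intron (adjusted p = 0.0104). A single MYCN+ library, at 29.7%, lay inside the MYCN- range. The same value stood in wildtype replicate 3, so 17 of the 18 values differ and this one may be filled in. ARHGEF35-AS1 went from 5.09% to 43.2% (median 27.8%) to 0.22% to 17.1% (median 0.343%) in a 72667-base intron (adjusted p = 0.0111), and FAM27C the other way, from a median of 0.523% to one of 13.9%, in its 2409-base intron (adjusted p = 0.00132). The FAM27C intron also holds a repeated value, with 17 different values. Held beside the rest, the 57 had a lower median mean PSI (8.77% against 16.3%) and larger clusters (median 11 introns against 7) than all members, and 6 (10.5%) held repeated values against 29.7%. For 55 of them the largest opposite change in the cluster was in an intron that shared the donor in 14, the acceptor in 16 and neither in 25. That partner was annotated in 50 and called in 13.

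SNRPD3 depletion gave 1 called lncRNA intron, the 10969-base intron of LINC01524 downstream of its 310-base exon (intron 5 of 8 in the canonical transcript). Its PSI was 25.3%, 37.7% and 49.3% in wildtype and 0.532%, 1.49% and 0.715% in MYCN+/SNRPD3+. In MYCN+/SNRPD3- cells it was 37.3%, 49.3% and 59.4% with siRNA 1 and 59.5%, 42.5% and 49.6% with siRNA 2. Without MYCN the knockdown libraries had 16.2%, 19.4% and 33.4% with siRNA 1 and 13.9%, 45.3% and 33.4% with siRNA 2. The 3 MYCN+/SNRPD3+ libraries were below all 15 others, and the knockdown ranges in MYCN- cells overlapped wildtype. In MYCN+ cells the knockdown raised the log2 odds by 5.66 ± 0.57 with siRNA 1 and by 5.77 ± 0.57 with siRNA 2 (adjusted p = 0.00288 for each), against a MYCN effect under control siRNA of -4.98 ± 0.57 (adjusted p = 0.00449). These 3 comparisons share the MYCN+/SNRPD3+ libraries. The interaction was 6.47 ± 0.7 (adjusted p = 0.0043). With the knockdown averaged over MYCN status the difference was 2.48 ± 0.35 (adjusted p = 0.0405), a call kept in 8 of 24 alternatives.

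The other introns of the LINC01524 cluster did not move as plainly. The intron over the exon stood at 33.4%, 96.8% and 25.3% in MYCN+/SNRPD3+ and at 13.3%, 0.226% and 9.28% in wildtype. The upstream intron, into the same exon, stood at 66.1%, 1.72% and 74.0% in MYCN+/SNRPD3+ and at 61.4%, 62.1% and 41.4% in wildtype. In 2 of the 3 MYCN+/SNRPD3+ libraries, then, the intron into the exon was well used while the 10969-base intron out of it was near 0. Neither of these introns was among those called. The plot of the LINC01524 cluster shows the spread of all 3 introns.

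Under control siRNA, 5 lncRNA introns differed between MYCN+ and MYCN- cells, 1 higher and 4 lower. Besides LINC01524, ENSG00000223969 and ENSG00000289189 (-4.04 ± 0.61, adjusted p = 0.034, kept in 9 of 24 alternatives), these were FAM182B and A1BG-AS1. The 16597-base intron of FAM182B stood at 25.3%, 15.9% and 14.2% in MYCN+/SNRPD3+ and at 0.148% to 0.206% in wildtype, and in the other groups only 1 library, at 11%, exceeded 1%. The difference was 4.3 ± 0.67 log2 odds (adjusted p = 0.0434), kept in 7 of 24 alternatives. A1BG-AS1, antisense to the plasma glycoprotein gene A1BG, had a 5869-base intron (chr19:58347845-58353713) at 8.54%, 12.6% and 6.47% in wildtype and at 0.0988%, 0.126% and 0.0875% in MYCN+/SNRPD3+ (-3.3 ± 0.51, adjusted p = 0.0388, kept in 11 of 25 alternatives). In MYCN+/SNRPD3- cells it stood at 7.13%, 5.6% and 4.42% with siRNA 1 and at 4.2%, 0.106% and 3.12% with siRNA 2. All 5 introns stood apart with no overlap between the 3 and 3 libraries, as did 973 of the 8246 members (11.8%) and 11.8% of all introns tested, so the absence of overlap does not set lncRNA introns apart.

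MYCN+/SNRPD3- against wildtype gave 11 lncRNA introns with siRNA 1, 6 higher and 5 lower, and 5 with siRNA 2, 3 higher and 2 lower. Called with both were ENSG00000289189, MIR4435-2HG and LINC02551. The last intron of LINC02551 (1090 bases) was at 87.9%, 87.9% and 86.7% in wildtype and at 99.8% to 99.9% in all 6 MYCN+/SNRPD3- libraries (3.78 ± 0.65, adjusted p = 0.0325, and 3.8 ± 0.65, adjusted p = 0.0489, kept in 15 and 6 of 23 alternatives). It was also at 94.9% to 99.9% in MYCN-/SNRPD3- and 95.2% to 99.9% in MYCN+/SNRPD3+ libraries, so wildtype alone was low. It has 15 different values, and its only cluster partner is unannotated. The 211-base intron of ENSG00000290600, in a cluster with introns of the coding gene ZNF783 and so a share over both genes, fell from 12.5%, 13.5% and 24.9% in wildtype to 0.189%, 0.148% and 0.151% with siRNA 1 (-4.15 ± 0.5, adjusted p = 0.00593), whereas with siRNA 2 the MYCN+ libraries stood at 10.7%, 11.4% and 4.43%. GBAP1, the transcribed pseudogene of the glucocerebrosidase gene, used its 596-base intron at 99.5% to 99.8% in wildtype and at 75.9%, 66.1% and 81.0% in MYCN+/SNRPD3- siRNA 1 (-4.73 ± 0.85, adjusted p = 0.04, kept in 9 of 24 alternatives). With siRNA 2 it stood at 99.7%, 99.6% and 78.0%. The intron has 14 different values in 18 libraries, and the repeated ones, at 99.5% or above, may be filled in. An unannotated 667-base intron to the same acceptor took up the difference, and reads of GBAP1 can be confused with those of its parent gene. The largest PSI difference among these calls, 87.3 points in a 4254-base intron of the pseudogene-derived GTF2IRD1P1 with siRNA 2 (adjusted p = 0.0253), rests on a cluster with 11 different values in 18 libraries, among them 15.5% in 6 libraries and 96.6% in 2, which may be filled in.

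No lncRNA intron was called for either siRNA in MYCN- cells, and 5 of the introns with the smallest p-values there are given as values beside LINC02551, described above (adjusted p = 0.205 for siRNA 1). The 127551-base intron of MAP4K3-DT stood at 5.71%, 4.17% and 5.23% with siRNA 1 and at 0.0648% to 0.0852% in wildtype, and with siRNA 2 it reached 4.03% in 1 library (adjusted p = 0.205 for siRNA 1). A 681-base intron of OGFRP1 stood at 8.21%, 18.1% and 14.4% with siRNA 1 and at 0.131% to 0.264% with siRNA 2, a difference between the siRNAs that was not tested. For siRNA 2 the smallest p belonged to the 6112-base intron of STXBP5-AS1, at 77.1%, 92.2% and 82.3% with siRNA 2, 99.7% to 99.8% in wildtype and 99.8% to 99.9% with siRNA 1 (-3.92 ± 0.58, adjusted p = 0.0629), with 12 different values. The 1854-base intron of ENSG00000291133, which also matches a pseudogene intron, stood at 85.2%, 87.8% and 92.6% with siRNA 2, at 85%, 77.5% and 85.5% with siRNA 1 and at 55.5%, 65.4% and 62.4% in wildtype (2.25 ± 0.36 for siRNA 2, adjusted p = 0.123). Both siRNAs lay above wildtype there, and neither difference was called. It also stood at 80.1% to 90.1% in MYCN+/SNRPD3+ and at 78.8% to 89.0% in MYCN+/SNRPD3- libraries, so wildtype alone was low. A 1342-base intron of PCOTH stood at 32.5%, 33.3% and 33.3% with siRNA 2 and at 54.5%, 39.9% and 55.9% in wildtype (adjusted p = 0.425). Grouped by the number of bases that match the donor consensus, the median knockdown difference over the members was -0.036 log2 odds for 0 to 5 matches, -0.038 for 6, -0.0041 for 7 and 0.025 for 8 or 9. For coding introns the same medians were -0.013, -0.0094, -0.0053 and -0.0022. The groups held 1607, 3064, 2541 and 1034 members, of which 6.91%, 7.93%, 7.08% and 8.9% had an unadjusted p under 0.05 for the knockdown. By MYCN status the member medians were -0.038, -0.042, -0.045 and -0.017. A trend over the groups was not tested.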

How the data were processed

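Polyadenylated RNA of 18 libraries was sequenced by the authors with a stranded mRNA kit. Reads were aligned with STAR 2.5.0a and handled with SAMtools 1.3.1, per the labels, and split reads were grouped into clusters with leafcutter, per the study's methods. The PSI values deposited by the authors are fractions of the split reads of a cluster, so they sum to 1 in each cluster. A second deposited file holds the authors' own pairwise differences and was not used. Introns were matched to GENCODE release 44 on hg38 by both ends, and the strand was taken from the annotation. All 18 columns were mapped to libraries by name.

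Each value became a log2 odds, log2((PSI + 0.01)/(1 - PSI + 0.01)). A single limma 3.58.1 model (R 4.3.3) of all 6 groups covered the 152722 introns whose mean lay between 0.01 and 0.99, with Benjamini-Hochberg adjustment and a threshold of 0.05. The step was tested on simulated data. Depth is unknown, so counting error could not be given. Members and gene lists were chosen with earlier results of these data known. Named introns were the 3 with the smallest p in each comparison, the 10 largest non-overlapping differences among called introns, 1 intron for each well-studied gene and those at the filter's edges. The other called introns named, such as HOXB-AS1 and C10orf95-AS1, were chosen after their values were seen. Alternatives were other offsets, other filters, only the groups compared, a replicate block, introns with 18 different values and leaving out each library.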

Additional observations from a re-analysis of the deposited data

Results flagged for a closer look

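The effect of SNRPD3 knockdown on the 10969-base intron of LINC01524 differed between MYCN+ and MYCN- cells, and the difference itself was tested as an interaction. The log2 odds of PSI rose by 6.47 ± 0.7 (SE) more with MYCN expressed than with MYCN repressed (limma, adjusted p = 0.0043), and the call was kept in 24 of 24 alternatives. Its size ran from 4.79 to 7.48 log2 odds over these alternatives, which include other offsets. The difference rests on the 3 MYCN+/SNRPD3+ libraries, at 0.532%, 1.49% and 0.715%, close to the lower edge of PSI.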

How the results depend on the processing

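No named difference changed direction. The 57 introns called for MYCN averaged became 48 to 66 when 1 library was left out, 43 with a mean PSI from 0.05 to 0.95, 74 among introns with 18 different values and 71 with a replicate block. The smaller counts moved more. For MYCN with control siRNA (5), offset 0.001 gave 2, introns with 18 different values gave 3 and leaving out a library 1 to 7. With offset 0.001, SNRPD3 siRNA 1 and siRNA 2 in MYCN+ cells gave 2 and 3, and with offset 0.05 the averaged knockdown gave 0. With no filter on mean PSI, siRNA 1 and siRNA 2 in MYCN- cells gave 1 each, siRNA 2 in MYCN+ cells 2, the averaged knockdown 2 and the interaction 2. Fitting only the groups compared gave 49 for MYCN with control siRNA, 39 and 30 for the siRNAs in MYCN- cells, 39 and 33 in MYCN+ cells, and 53 and 56 for MYCN+/SNRPD3- against wildtype. In that fit the member shares, 0.364% to 0.679%, were above those over all introns, 0.234% to 0.504%, in each comparison, and repeated values stood in 25 of 49, 17 of 39, 18 of 30, 16 of 39, 17 of 33, 27 of 53 and 29 of 56. The cause was not tested. Leaving out a library gave 0 to 3 for each siRNA in MYCN- cells, 1 to 4 for each in MYCN+ cells, 0 to 3 for the averaged knockdown and 1 to 3 for the interaction. MYCN+/SNRPD3- against wildtype gave 3 to 15 with siRNA 1, lowest without wildtype replicate 1, and 0 to 11 with siRNA 2, lowest without replicate 3 of that siRNA.

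With a replicate block, MYCN with control siRNA gave 3, siRNA 1 in MYCN- cells 1, MYCN+/SNRPD3- siRNA 1 against wildtype 22 and the averaged knockdown 3. Over all introns tested, deviations from the group mean did not correlate between same-numbered libraries (mean correlation 0.00615 over 45 pairs, 0 of them above 0.1). The share of lncRNA introns at a repeated value did follow the number within each MYCN status. It was lowest in replicate 2 of each MYCN- group (8.44%, 9.23% and 8.82%) and in replicate 3 of each MYCN+ group (11.5%, 13.2% and 11.6%). Whether same-numbered libraries share a culture or a batch was not tested.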
